A study of Bos taurus with 8 samples.

Results

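Complex I of the respiratory chain was followed through 40 genes whose array symbol starts with NDUF, in blood polymorphonuclear leukocytes (PMNL, the neutrophil-rich cell fraction) of Holstein dairy cows around calving. The platform annotates 42 such symbols on 81 features. Of these, 40 symbols on 71 features had a value on at least 6 of the 8 arrays, and features of 1 symbol were averaged. They are 40 of the 15700 rows tested. 39 of the 40 had a value on all 8 arrays. NDUFAF2, at 6 arrays, lay just inside this minimum. NDUFAF1, with 5 arrays, and NDUFAF4, with 4, lay just outside it at a brightness of 6 and 11.3, and were not tested.

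Complex I, the NADH:ubiquinone oxidoreductase, takes electrons from NADH, passes them along a flavin and a chain of iron-sulfur clusters to ubiquinone, and pumps protons across the inner mitochondrial membrane. Its arm in the matrix holds the NADH-oxidising N module and the quinone-reducing Q module, while the membrane arm has a proximal and a distal part that carry the proton pumps. The core subunits do the chemistry and are encoded in the nucleus and in mitochondrial DNA; the accessory subunits surround and stabilise them, and assembly factors help to build the complex and then leave it. Neutrophils hold few mitochondria and make most of their ATP by glycolysis.

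PMNL were isolated by centrifugation and cell lysis from tail-vessel blood of 8 cows, 4 on each of the diets labelled M and S, at day -14 (within 2 days) and day +7 relative to calving. Over a dry period of 45 days, cows received either wheat straw feed at 1.34 Mcal/kg, supplying 100% or more of the estimated requirement for net energy, or corn silage feed at 1.62 Mcal/kg, supplying more than 140%. Which of these is M is not stated in the labels. At day +7 all cows ate the same lactation feed of 1.69 Mcal/kg, so the groups of that day differ by the feed they had eaten before calving. Each of the 16 RNA samples, 200 ng at a mean RNA integrity number of 7.7 ± 0.2, was hybridised once, with Cy3 or Cy5, to a 2-colour Agilent bovine array. Each array set 2 samples against each other. There were 2 arrays for each of 4 pairings, which were the diets at day -14, the diets at day +7, the days in diet M and the days in diet S, and the 2 arrays of a pairing carried the dyes in opposite order. The arrays of the days in diet M each held both days of 1 cow, whereas those in diet S held different cows.

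A value is the log2 ratio of the 2 samples on an array, given as diet M minus diet S or as day +7 minus day -14. Neither the labels nor the files say which dye stands on top of the ratio. Signs here take Cy5 as the numerator, so that a value below 0 is lower in diet M, or lower at day +7. With Cy3 as the numerator every sign turns over, while sizes, errors and p-values stay. That all 8 columns run the same way is an assumption. Estimates are from limma's linear model over all 8 arrays, ± SE, with p-values adjusted over all 15700 rows by the Benjamini-Hochberg method. Each estimate rests on the direct pair of arrays and, with less weight, on the path through the other 6.

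Between 27679 and 32580 of 43803 features had a value on an array. Precision is limited by the number of arrays, and the median SE of an estimate was 0.388. Among the mature neutrophil markers, 9 of 12 were measured. The brightest feature of each had a brightness of 61.3 to 41103, with S100A12 among them. A ratio gives no level by group. Monocyte (11 of 12), T and NK cell (15 of 17) and B cell markers (7 of 10) were measured too. The brightness of the NDUF genes, as the mean over a gene's features, ran from 4.33 to 3260. Brightness is a lower bound on the spot intensity, recovered from the ratios. In whole PMNL, fewer cells of a type and less RNA per cell cannot be told apart.

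**Figure D1:**
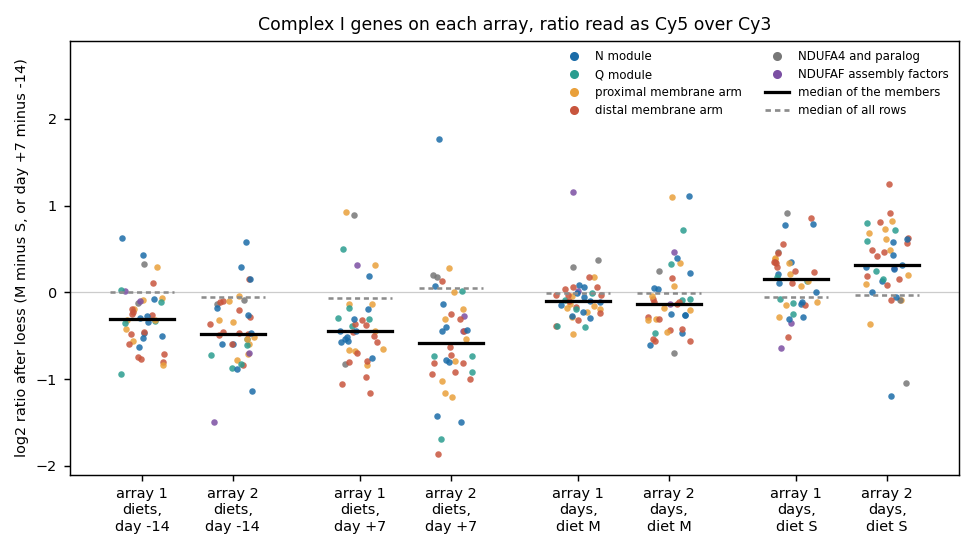
Log2 ratio of each of the 40 genes (points, coloured by module) on each of the 8 arrays, with the median of these genes (black bar) and of all rows (dashed bar). The black bar lies below 0 on all 4 arrays that pair the diets, from -0.31 to -0.58, near 0 on the arrays of the days in diet M, and above 0 on those in diet S.

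The pairing of the diets at day +7 had the largest median difference of the 4. 34 of the 40 genes had an estimate below 0, that is lower in diet M on the reading used here, where 49.6% of all rows did. Their median was -0.58 (SD over genes 0.46), and the median of all rows was 0.01. On the 2 arrays that pair the diets at this day the median of the NDUF genes was -0.45 and -0.58, and 27 of 39 genes were below 0 on both (28.2% of rows), against 2 above 0 on both (26.9% of rows). At an adjusted p under 0.05 limma called 0 of 40 genes, and 0 of 15700 rows (0% called). At an unadjusted p under 0.05 there were 17 of 40 genes below 0 (10.3% of rows) and 0 above 0 (12.8% of rows).

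In the N module, 8 of 10 genes were below 0 with a median of -0.57. NDUFV1, the core subunit that binds NADH and the flavin, was at -0.30 and -1.42 on the 2 arrays and had an estimate of -0.92 ± 0.33 (adjusted p = 0.178 by limma). Both arrays had the same sign, and the second was the lower. NDUFV2, which carries an iron-sulfur cluster next to it, was closer together at -0.44 and -0.40, with an estimate of -0.44 ± 0.26 (adjusted p = 0.328). NDUFS1, the largest core subunit, holds several iron-sulfur clusters; its arrays were split, -0.56 and 0.07, and its estimate was -0.17 ± 0.31. Of the accessory subunits of the module, NDUFA12 was at -0.52 and -1.49 (estimate -1.04 ± 0.31, adjusted p = 0.151), a 2.06-fold difference, again with the second array lower. NDUFS4 and NDUFS6, small subunits at the junction with the rest of the matrix arm, had estimates of -0.71 and -0.75. NDUFV3, an accessory subunit beside NDUFV1, went the other way in the estimate, 0.94 ± 0.48, the highest of the 40, but its arrays differed in sign, -0.19 and 1.77.

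In the Q module, 4 of 5 measured genes were below 0, and the median was -0.61. The accessory subunit NDUFA5 was at -0.39 and -1.69, with an estimate of -1.09 ± 0.29 (2.13-fold, adjusted p = 0.141). The array values thus shared a sign and differed widely in size. The core subunits NDUFS3 and NDUFS7 were at -0.17 and -0.73 and at -0.31 and -0.73. Their estimates were -0.61 ± 0.33 (adjusted p = 0.285) and -0.55 ± 0.29 (adjusted p = 0.282). NDUFS7 holds the iron-sulfur cluster that hands electrons to ubiquinone. NDUFS8, the core subunit with the clusters before it, was the exception of the module at 0.50 and 0.01, with an estimate of 0.12 ± 0.34 (adjusted p = 0.852). Its features also differed in sign.

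The proximal membrane arm had 7 of 9 genes below 0 and a median of -0.40. NDUFC2, a membrane-spanning accessory subunit, had the smallest p of the 40 genes: -0.65 and -1.21 on the arrays and -1.03 ± 0.28 in the fit, a 2.05-fold difference with an adjusted p of 0.141 by limma. NDUFS5, a subunit on the intermembrane side, was at -0.67 and -1.02 (estimate -0.88 ± 0.26, adjusted p = 0.149). These arrays lay close to each other. NDUFA13, also known as GRIM19 from work on cell death in human cells, was at -0.45 and -1.16 (estimate -0.89 ± 0.28, adjusted p = 0.158). The estimates of NDUFA11, NDUFA8, NDUFA10 and NDUFA1 ran from -0.56 to -0.25, and those of NDUFC1 and NDUFA3 were 0.13 and 0.05.

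The distal membrane arm was the only one of these 4 modules with every gene below 0: 12 of 12, with a median of -0.80 (SD 0.26, range -1.21 to -0.21). 8 of the 12 had an unadjusted p under 0.05 (10.3% of rows). NDUFB6 and NDUFB1, small membrane subunits, had arrays close to each other, -0.97 and -0.81 for NDUFB6 and -1.05 and -0.92 for NDUFB1. Their estimates were -1.03 ± 0.30 (adjusted p = 0.148) and -0.97 ± 0.29 (adjusted p = 0.152). NDUFB5 had the lowest estimate of the 40 genes, -1.21 ± 0.37 (2.31-fold, adjusted p = 0.156). It rested more on the second array, at -1.87, than on the first, at -0.58. NDUFAB1, the mitochondrial acyl carrier protein, which also serves fatty acid synthesis in the mitochondrion, was at -0.81 and -0.82 on the arrays with an estimate of -0.80. NDUFB9 was the nearest to 0 of the arm, at -0.21 in the fit and -0.32 and 0.13 on the arrays. The ATP synthase, given below as complex V, had a similar median of -0.79. In it 13 of 15 genes were below 0, 10 of them at an unadjusted p under 0.05. Whether the distal arm differs from the other modules was not tested.

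NDUFA4 and its paralog NDUFA4L2 were listed apart from the modules. NDUFA4 is now counted with complex IV (cytochrome c oxidase), and NDUFA4L2 is known from human cells as a gene raised under low oxygen. NDUFA4 was at -0.82 and 0.20 on the arrays, with an estimate of -0.42, and all 4 of its features had estimates from -0.54 to -0.38. NDUFA4L2 was above 0 on both arrays, at 0.89 and 0.17, with an estimate of 0.57 ± 0.36. The 2 assembly factors were near 0. NDUFAF3, which helps to form the Q module, was at 0.31 and -0.45 (estimate -0.07 ± 0.31, adjusted p = 0.908). NDUFAF2, which acts before the N module is added and is a paralog of NDUFA12, had no value on the first array and -0.27 on the second; its estimate from 6 arrays was -0.21 ± 0.54 (adjusted p = 0.834). NDUFAF6 and NDUFAF7 stand on the platform under older names, outside the rule, and had estimates of -0.47 ± 0.37 and -0.97 ± 0.33 (adjusted p = 0.447 and 0.176).

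By role, the 30 accessory subunits had a median of -0.71, with 26 below 0 and 16 of them at an unadjusted p under 0.05 (10.3% of rows). The 6 measured core subunits had a median of -0.50, with 5 below 0 and 1 at that threshold. The count of 17 genes leaned on both arrays of the pairing: it was 10 without the first array and 3 without the second, with medians of -0.72 and -0.63. Without the second array and the other array of the same diet S cow it was 1, with a median of -0.61. The sizes thus lay in one range while the counts past the unadjusted threshold did not. Fewer arrays also leave fewer residual degrees of freedom, whose part in the counts was not tested. Without any other single array the count of NDUF genes was 12 to 15. Shares of all rows at this threshold are not given for these fits, so the counts do not set the NDUF genes apart from all rows.

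**Figure D2:**
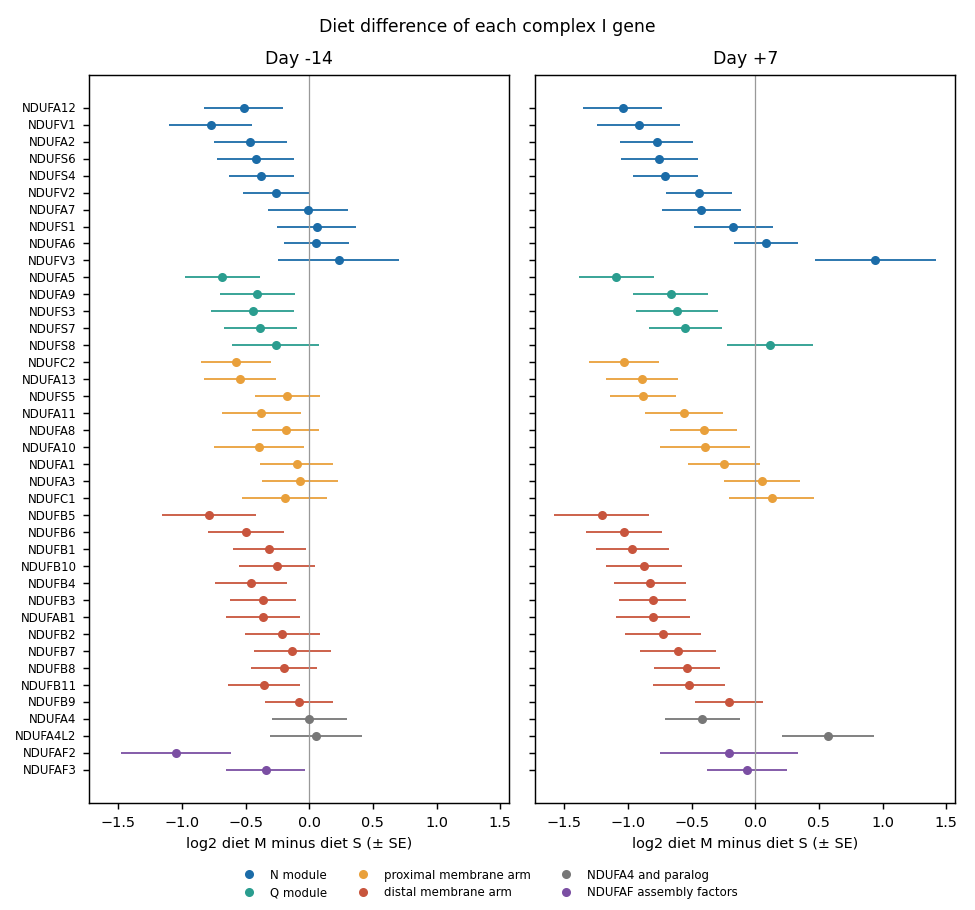
Estimated diet difference (log2, diet M minus diet S, ± SE from limma over 8 arrays) of each of the 40 genes at day -14 (left) and at day +7 (right), ordered by module and by the day +7 value. Most points lie left of 0 in both panels, 35 of 40 at day -14 and 34 of 40 at day +7. All 12 genes of the distal membrane arm do so in both, and NDUFV3, NDUFA4L2 and NDUFA6 lie right of 0 in both.

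Marker genes of several cell types were displaced in the same pairing. All 9 measured mature neutrophil markers were above 0 at day +7, with a median of 2.10 (0.71 and 2.38 on the 2 arrays). Monocyte markers were above 0 in 11 of 11 (median 0.87, with -0.66 and 3.0), and T and NK cell markers in 14 of 15 (median 0.46, with 0.18 and 1.53). B cell markers were below 0 in 6 of 7 (median -0.90, with 0.70 and -2.68). Eosinophil and basophil markers were above 0 in 2 of 2 (median 2.88, with 0.10 and 7.41), platelet markers in 2 of 2 (median 1.16, with -0.43 and 1.87) and red cell markers in 2 of 3 (median 0.82, with 0.25 and 0.92). Immature neutrophil markers were below 0 in 4 of 6, with -1.96 and 2.37 on the arrays. The medians of mature neutrophil, T and NK cell, eosinophil and basophil, and red cell markers thus had 1 sign on both arrays, as that of the NDUF genes had, while those of monocyte, B cell, platelet and immature neutrophil markers turned sign. The part of these markers in the NDUF differences was not tested.

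Different features of a gene are separate measurements of it. Of the 40 genes, 23 had several features, and at day +7 the features of 5 differed in sign: NDUFA3, NDUFA6, NDUFC1, NDUFS1 and NDUFS8. 4 of these 5 were among the 6 genes with an estimate above 0. NDUFC1, a small subunit of the proximal membrane arm that was singled out here after its values were seen, had a feature with a brightness of 376 at -1.27 and -1.32 on the 2 arrays and an estimate of -1.24. Its dim feature, with a brightness of 14.7, was at 3.12 and 0.95, with an estimate of 1.5. The average of 0.13 thus joined a bright feature well below 0 with a dim one well above it. For NDUFA6, which anchors an acyl carrier protein to the matrix arm, the feature with a brightness of 1618 was at -0.62 and that of 128 at 0.78. In NDUFA3 the dimmest of 4 features, at 9.27, had an estimate of 0.86, while the other 3 ran from -0.29 to -0.08. In the other pairings, features differed in sign in 5 of the 23 genes for the diets at day -14. They did so in 14 of 23 for the days in diet M and in 9 of 23 in diet S, so averages there more often join features of both signs.

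When dim features were left out, at a median brightness under 64, limma called 325 of 9661 rows at day +7, 32 of them below 0 (0.331% of rows) and 293 above 0 (3.03%). 1 of the 39 NDUF genes still measured was called, NDUFC1 at -1.24 ± 0.23 (adjusted p = 0.042), now on its bright feature alone. The same feature had an adjusted p of 0.131 when the brightest feature stood for each gene over all rows, and the adjusted p of NDUFC1 ran from 0.042 to 0.901 over all the alternatives. NDUFC2 and NDUFA5 followed at an adjusted p of 0.0565 and 0.0582. 35 of the 39 genes were below 0 in that setting, with a median of -0.67.

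**Figure D3:**
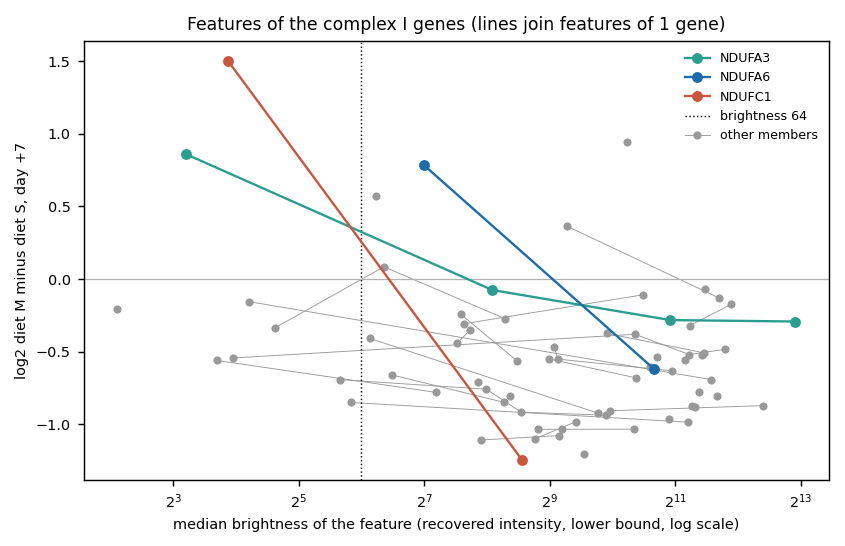
Diet difference at day +7 (log2, diet M minus diet S) of each feature of the NDUF genes against the feature's median brightness (log scale, a lower bound on intensity). Lines join features of 1 gene; NDUFC1 runs from 1.5 at a brightness of 14.7 to -1.24 at 376, and NDUFA3 and NDUFA6 also have their highest value at their dimmest feature. The dotted line marks a brightness of 64.

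The diets at day -14, while they were being fed, gave smaller values of the same sign. 35 of 40 genes had an estimate below 0 (51.8% of rows), with a median of -0.35 (SD 0.26) against -0.02 for all rows. The medians on the 2 direct arrays were -0.31 and -0.47. 30 of 40 genes were below 0 on both arrays (32.6% of rows) and 1 was above 0 on both (29.4% of rows). Limma called 0 of 40 genes and 0 of 15700 rows at an adjusted p under 0.05 (0% called). At an unadjusted p under 0.05 there were 1 gene below 0 (3.63% of rows) and 0 above 0 (2.32% of rows).

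That gene was NDUFV1, the NADH-binding subunit, at -0.53 and -1.13 on the arrays and -0.77 ± 0.33 in the fit (adjusted p = 0.736 by limma). In the Q module NDUFA5 was at -0.94 and -0.53 (estimate -0.68 ± 0.29). In the distal arm NDUFB5 was at -0.71 and -0.84 (-0.79 ± 0.37), and NDUFB6 at -0.80 and -0.48 (-0.50 ± 0.30). All of these had the same sign on both arrays. The membrane subunits NDUFC2 and NDUFA13 had estimates of -0.57 ± 0.28 and -0.54 ± 0.28, and NDUFA12 of the N module -0.51 ± 0.31. The adjusted p of each of these genes was 0.736, as it was for NDUFAF2. This assembly factor had the lowest estimate, -1.05 ± 0.43 from 6 arrays, but was at -0.10 on one array and -1.50 on the other, and it had a brightness of 4.33. NDUFAF3 was split between the arrays, at 0.01 and -0.70 (-0.34 ± 0.31). The day -14 estimate of NDUFV1 averaged a dim feature, with a brightness of 56.9, at -1.03 and one with a brightness of 2347 at -0.52. When dim features were left out as above, NDUFV1 was at -0.52 ± 0.29 (unadjusted p = 0.114 by limma). NDUFA5, NDUFC1, NDUFC2 and NDUFB5 then had an unadjusted p of 0.0305, 0.0285, 0.0451 and 0.0475 by limma, each with an adjusted p of 0.645.

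Among the other core subunits, NDUFS3 and NDUFS7 were lower on the second array than on the first: -0.35 and -0.87 for NDUFS3, and -0.11 and -0.72 for NDUFS7. NDUFV2 was even at -0.30 and -0.27. NDUFS8, at 0.03 and -0.83, and NDUFS1, at 0.44 and -0.18, differed in sign between arrays. By module, all 12 genes of the distal membrane arm were below 0 (median -0.33), all 9 of the proximal arm (-0.19), all 5 of the Q module (-0.41) and 7 of 10 of the N module (-0.32). The 3 N module genes above 0 were NDUFS1, NDUFA6 and NDUFV3, the last at 0.62 and 0.15. At this day the marker medians were 0.64 for mature neutrophils (above 0 in 7 of 9), 1.26 for monocytes (11 of 11), 0.58 for T and NK cells (12 of 15) and -0.92 for B cells (1 of 7). They were 0.56 for immature neutrophils (5 of 6), 2.34 for eosinophils and basophils (2 of 2), 0.64 for platelets (2 of 2) and 0.48 for red cells (2 of 3). Their part in the NDUF values was not tested.

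The 4 arrays that pair the diets share no RNA sample, but their diet M side came from 2 cows only. One of them was on the first array of both days and the other on the second array of both days, whereas the diet S side came from 4 cows. The counts over these 4 arrays therefore rest on 2 diet M cows, each measured at both days, and the 2 days are not independent of each other. Of the 39 genes with a value on all 4, 24 were below 0 on every one (17.7% of rows) and 0 above 0 on every one (15.1% of rows). These 24 included NDUFV1 and NDUFV2 of the N module core, NDUFS3 and NDUFS7 of the Q module core, and 9 of the 12 distal arm genes, all but NDUFB1, NDUFB2 and NDUFB9. The remaining core subunits, NDUFS1 and NDUFS8, were not among them.

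The days in diet M differed little. 25 of 40 genes were below 0 (47.6% of rows), that is lower at day +7 than at day -14 on the reading used here, with a median of -0.05 (SD 0.18) against 0.02 for all rows. The direct medians were -0.10 and -0.13. 18 of 40 genes were below 0 on both arrays (24.6% of rows) and 2 above 0 on both (23.1% of rows). Limma called 0 of 40 genes and 0 rows at an adjusted p under 0.05 (0% called), and 0 of 40 genes even at an unadjusted p under 0.05, where 1.15% of rows were below 0 and 2.02% above 0.

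Each estimate in this pairing had an adjusted p of 0.999 by limma. NDUFA7, an accessory subunit of the N module, was at -0.10 and -0.60 on the arrays (estimate -0.42 ± 0.31), and NDUFS5 was at -0.28 and -0.46 (-0.33 ± 0.26). The estimate of NDUFA7 averaged a dim feature, with a brightness of 18.6, at -0.64 and one with a brightness of 3049 at -0.20. In the distal arm NDUFB10 was at -0.32 and -0.56, NDUFB7 at -0.38 and -0.53 and NDUFB4 at -0.17 and -0.56, with estimates of -0.26, -0.23 and -0.20. These 5 genes were below 0 on both arrays. On the other side, NDUFA4L2 was at 0.38 and 0.25 (0.27 ± 0.36) and NDUFAF3 at 0.01 and 0.46 (0.24 ± 0.31), while the core subunit NDUFS8 differed in sign, at -0.19 and 0.72 (0.40 ± 0.34). NDUFAF2 was at 1.16 and -0.14 (0.26 ± 0.43). The other core subunits were between -0.20 (NDUFS7) and 0.11 (NDUFV1).

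The days in diet S went the other way. 31 of 40 genes were above 0, with a median of 0.23 (SD 0.24) against -0.004 for all rows; 9 of 40 were below 0 (50.5% of rows). The direct medians were 0.16 and 0.31, and 20 of 39 genes were above 0 on both arrays (18.9% of rows) against 2 below 0 on both (24.2% of rows). Limma called 0 of 40 genes and 0 rows at an adjusted p under 0.05 (0% called), and 0 genes at an unadjusted p under 0.05, where 3.78% of rows were below 0 and 1.04% above 0.

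All 12 distal arm genes were above 0, with a median of 0.34. NDUFB1 was at 0.36 and 0.57 on the arrays (0.48 ± 0.29), NDUFB6 at 0.34 and 0.91 (0.49 ± 0.30) and NDUFB3 at 0.25 and 0.48 (0.42 ± 0.26). In the N module NDUFS6 was at 0.79 and 0.43 (0.45 ± 0.30) and NDUFA2 at 0.77 and 0.29 (0.38 ± 0.29). NDUFS5 of the proximal arm was at 0.34 and 0.49 (0.38 ± 0.26), and NDUFA13 and NDUFA5 had estimates of 0.36 ± 0.28 and 0.38 ± 0.29. These 8 genes, which have the smallest p of the pairing, were above 0 on both arrays, each with an adjusted p of 0.999. The core subunits were closer to 0, from -0.04 (NDUFS7) to 0.26 (NDUFV1), and the assembly factors NDUFAF3 and NDUFAF2 had estimates of -0.04 ± 0.31 and -0.57 ± 0.54. NDUFV3, at 0.11 and -1.19, and NDUFA4L2, at 0.46 and -1.05, differed in sign between the arrays. Mature neutrophil markers had a median of -0.27 in this pairing (0.14 and -1.30 on the arrays) and of 0.54 in diet M (0.65 and 1.35). Monocyte markers had medians of 1.02 in diet S (3.55 and -0.12) and 0.85 in diet M (0.64 and 0.27), and immature neutrophil markers of 1.32 (3.81 and -1.62) and 0.71 (-0.42 and 0.31). T and NK cell markers were below 0 in 12 of 15 in each diet, with medians of -0.25 in S and -0.43 in M, and eosinophil and basophil markers in 2 of 2, at -1.64 and -1.09. In S and M, B cell markers had medians of 0.26 and 0.22, platelet markers 0.57 and 1.10, and red cell markers 0.51 and 0.14. Their part in the NDUF values was not tested.

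**Figure D4:**
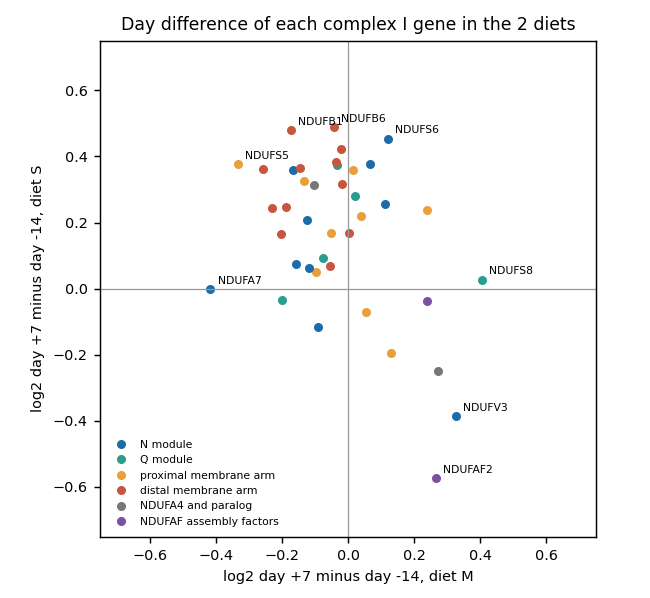
Estimated day difference (log2, day +7 minus day -14) of each of the 40 genes in diet S (vertical) against diet M (horizontal), coloured by module. The distal membrane arm lies between 0.07 and 0.49 on the vertical axis and between -0.26 and 0.00 on the horizontal axis; NDUFAF2, NDUFV3 and NDUFA4L2 lie at the lower right. Both axes come from 1 fit over the same 8 arrays.

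The difference between these day differences is the interaction of diet and day. Its median over the NDUF genes was -0.29 (SD 0.36) with 31 of 40 below 0 (49.5% of rows), against 0.01 for all rows. Limma called 0 of 40 genes and 0 rows at an adjusted p under 0.05 (0% called). At an unadjusted p under 0.05 there was 1 gene below 0 (1.01% of rows), NDUFS5 at -0.71 ± 0.30 (adjusted p = 0.773), and 0 above 0 (5.42% of rows). The distal arm was below 0 in 12 of 12, with a median of -0.44, and was led by NDUFB1 (-0.65 ± 0.33), NDUFB10 (-0.62 ± 0.34) and NDUFB6 (-0.53 ± 0.34). NDUFAF2 (0.84 ± 0.56) and NDUFV3 (0.71) had the highest values. For the same interaction, mature neutrophil markers had a median of 0.98 (above 0 in 8 of 9, 3 at an unadjusted p under 0.05) and immature neutrophil markers of -1.03 (below 0 in 4 of 6, 3 at that threshold). The medians were -0.40 for monocyte, -0.27 for T and NK cell, -0.27 for B cell, 0.54 for eosinophil and basophil, 0.52 for platelet and 0.34 for red cell markers. The part of these markers in the NDUF interaction was not tested.

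The interaction can be read from the diet arrays or from the day arrays, which share no RNA sample. The diet S cows are the same in both, each at its other day, so these readings are not independent. The 4 diet arrays alone gave a median of -0.14, with 29 of 39 genes below 0 (6132 of 13764 rows). The 4 day arrays alone gave -0.39, with 32 of 39 below 0 (7488 of 14320 rows). The medians of all rows were 0.08 and -0.05. On the day arrays 12 of 39 genes were below 0 on both arrays of diet M and above 0 on both of diet S (5.53% of rows), and 0 had the opposite pattern (8.04% of rows). Among the 12 were NDUFS5, NDUFB10 and NDUFB7. The design also lets each pairing be computed without its own arrays. Except for the days in diet M, a pairing's own arrays and the others share cows. For the diets the direct and the indirect medians were -0.38 and -0.20 at day -14, and -0.49 and -0.79 at day +7. For the days they were -0.11 and 0.16 in diet M, where the sign turned, and 0.31 and 0.07 in diet S.

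The other subunits of the complex are encoded in mitochondrial DNA and form the proton-pumping core of the membrane arm. 6 of these 7 genes were measured, and their medians did not share the pattern on the arrays. Their estimates were below 0 in 6 of 6 for the diets at both days, with medians of -0.33 at day -14 and -0.44 at day +7. Their medians on the direct arrays, however, differed in sign, 0.28 and -1.04 at day -14 and 0.25 and -1.08 at day +7. The first array of both days carried 1 diet M cow and the second the other, so these values also differ by cow. ND5 was at 0.72 and -0.93 on the day +7 arrays and ND1 at 0.57 and -0.94. ND6 was below 0 on both, at -0.77 and -1.60 (estimate -0.99 ± 0.39, adjusted p = 0.193), and so was ND4L, at -0.05 and -1.22. On the day -14 arrays ND6, at -0.30 and -1.09, and ND2, at -0.23 and -1.15, were below 0 on both.

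Of the assembly factors with other names, 5 of 7 measured were below 0 at day +7, with a median of -0.63. Their medians on the direct arrays, 0.32 and -0.68, differed in sign too. TMEM126A, named as a factor for the membrane arm in human cells, was at -1.55 ± 0.38 (adjusted p = 0.13), and ACAD9, an acyl-CoA dehydrogenase relative that serves in assembly, was at -0.63 ± 0.36. FOXRED1 was at 1.25 ± 0.44 (adjusted p = 0.177). None of the 7 passed.

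Across the rest of the chain at day +7, the medians were -0.45 for complex III (8 of 9 below 0) and -0.54 for complex IV (9 of 10). Complex V, the ATP synthase, had -0.79 (13 of 15). Complex II, listed together with its assembly factors, had -0.46 (6 of 7). Its subunits SDHA, SDHB, SDHC and SDHD were at -0.46, -0.29, -0.18 and -0.61. The value of -0.58 for the NDUF genes lay within the range of these medians, and no gene of these lists passed at an adjusted p under 0.05. The enzymes that make the NADH used by complex I were below 0 in 11 of 12, with a median of -0.57. DLD, the shared subunit of the pyruvate and oxoglutarate dehydrogenase complexes, was at -1.49 ± 0.38 (adjusted p = 0.137). The pyruvate dehydrogenase subunit PDHA1 was at -1.40 ± 0.44, and HADH of fatty acid oxidation at -1.45 ± 0.46. Other enzymes that pass electrons to ubiquinone without complex I were mixed: 6 of 8 were below 0 (median -0.42), with DHODH of pyrimidine synthesis at -1.37 ± 0.41, but proline dehydrogenase, PRODH, was at 1.47 ± 0.36 and SQOR, which oxidises sulfide, at 1.20 ± 0.37. Regulators of mitochondrial genes were split, with 5 of 9 below 0 (median -0.28). The transcription factor NRF1 was at 1.69 ± 0.57, and the coactivator PPRC1 at -1.14 ± 0.47 and TFB2M, which serves transcription of mitochondrial DNA, at -1.02 ± 0.39. None of these passed either.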

How the data were processed

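Per the labels, each array compared a Cy3 and a Cy5 sample. The authors deposited 1 log2 ratio per feature and array; the sources used here name no scanner, software, background method or spot filter. For 97.8 to 98.5% of the values, 2 raised to the deposited log2 value was a ratio of 2 whole numbers up to 10000 (tolerance 1e-09), and for 2.30 to 3.28% after a shift. The array medians were -0.37 to 0.40, so the values had not been normalised. Blanks made up 25.6 to 36.8%. The recovered whole numbers gave each feature's brightness.

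Each array was corrected by loess on the feature's median brightness (span 0.4, 4 iterations). Features with at least 6 of 8 arrays (24620) were averaged by symbol, giving 15700 rows, 9781 with a symbol. Symbols came from the platform annotation, updated by RefSeq names (30788 features with 1 symbol, 13015 with none). The loop model, with 3 group terms and a dye term, was fitted in limma 3.58.1 (R 4.3.3; 4 residual and 3 prior degrees of freedom) and tested on simulated data. P-values are two-sided. The main fit treats the 16 RNA samples of the 8 cows as independent. Its residual spread mixes arrays within a cow, those of the days in diet M, with arrays between cows, so it is not the spread between cows. The cow, from the sample titles, pairs samples; the within-cow correlation was 0.2, and the fit with the cow as block is an alternative.

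The genes and gene lists were chosen with earlier results of these data known. Named were, in each pairing, the 8 genes with the smallest p, the core subunits and the assembly factors; others were given by range or as examples of their module. Alternatives were the deposited values, median centring, values on all 8 arrays, a brightness of at least 64, no dye term, array weights, the cow as block, the brightest feature, each array left out, and 1 cow left out. Sequences were not used here.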

Additional observations from a re-analysis of the deposited data

Results flagged for a closer look

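In 12 of 39 NDUF genes both arrays of the days in diet M were below 0 and both arrays in diet S above 0 (5.53% of rows). 0 had the opposite pattern (8.04% of rows). The genes were picked by these signs, so their differences only describe them. The difference of the mean direct day differences, diet M minus diet S, was -0.99 for NDUFB10, -0.93 for NDUFB7, -0.79 for NDUFS5, -0.69 for NDUFB4, -0.67 for NDUFC2, -0.63 for NDUFA11, -0.62 for NDUFB1, -0.54 for NDUFB11, -0.51 for NDUFA5, -0.50 for NDUFB8, -0.39 for NDUFS4 and -0.36 for NDUFA8. The 12 include 6 genes of the distal membrane arm, and NDUFB7 and NDUFB10 are subunits of that arm with the widest gaps. Features of NDUFA5 differed in sign in the fit for the days in diet M, and those of NDUFA8 in diet S. After loess, the median over the NDUF genes had the same pattern, -0.10 and -0.13 in diet M and 0.16 and 0.31 in diet S, a difference of -0.35. As deposited, the medians in diet S were -0.35 and 0.31, on arrays with medians of -0.37 and 0 over all features. In the fit, the diet M median turned above 0 with median centring (0.068) and without its second array (0.051). The differences listed here are of direct array values and were not tested. Limma's interaction over all 8 arrays called 0 of 40 genes, with 1 at an unadjusted p under 0.05. In diet M each array held 1 cow at both days and in diet S different cows, so diet and the pairing of cows cannot be told apart here.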

How the results depend on the processing

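With the ratio read as Cy3 over Cy5, the medians of the NDUF genes were 0.35 for the diets at day -14, 0.58 at day +7, 0.047 for the days in diet M, -0.23 in diet S and 0.29 for the interaction. With the values as deposited they were -0.23, -0.48, -0.28 and 0.019 for the 4 pairings, while the medians of all rows shifted to 0.09, 0.00, -0.31 and -0.25. Median centring gave -0.41 and 10 genes at an unadjusted p under 0.05 for the diets at day +7, and a sign change for the days in diet M, to 0.068; the cause was not tested. Array weights gave -0.012 for the days in diet M, and the brightest feature -0.69 for the diets at day +7. With values on all 8 arrays 1 row was called at day +7, and at a brightness of at least 64 there were 325 rows and 1 NDUF gene, NDUFC1 at -1.24, where its dim feature is left out.

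As each array was left out, the medians ran from -0.37 to -0.21 for the diets at day -14, from -0.72 to -0.51 at day +7, from -0.086 to 0.051 for the days in diet M (0.051 without its second array), from 0.14 to 0.26 in diet S and from -0.36 to -0.19 for the interaction. The genes at an unadjusted p under 0.05 at day +7 ran from 3 to 15, and 0 rows and 0 NDUF genes were called in each. Without both arrays of 1 diet S cow, 1 gene was at that threshold. Shares of all rows at that threshold are not given for these fits or for median centring, so these counts describe the NDUF genes alone. The cow as replicate block gave medians of -0.35, -0.58, -0.07, 0.20 and -0.29 and changed no call. Among the named values the sign turned in 4 of 235 alternatives at day -14, 12 of 286 at day +7, 16 of 235 for the days in diet M, 25 of 269 in diet S and 11 of 269 for the interaction, and 1 call changed, that of NDUFC1. Dim features limit what can be read: NDUFAF2 has a brightness of 4.33.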
